A study of Homo sapiens with 12 samples.

Results

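Cholesterol is made, taken up and kept in balance by a well mapped set of genes, and 30 of them were followed here: the enzymes from acetyl-CoA to cholesterol, the proteins that sense sterol and switch these enzymes, and a few carriers that move or export cholesterol. The 30 genes were chosen by name, as known members of these steps, from the 19447 gene symbols of the count table. Earlier results of these data were known when they were chosen, so their counts beside the share of all genes are a description. All 30 were in the table, and all 30 passed the filter on low counts in each of the 5 comparisons. K562 is an established human myeloid leukemia line, and it carries the BCR-ABL1 fusion that imatinib inhibits. K562/IM is a line derived from it by culture in rising imatinib and kept in 5 µM imatinib, and lycorine is a plant alkaloid given at 6 µM. The 4 groups of 3 libraries each were K562 (untreated), K562+L (K562 with lycorine), K562/IM (not given lycorine) and K562/IM+L (K562/IM with lycorine). How long the sequenced cells were exposed to lycorine, and whether imatinib was in the medium at harvest, are not given in the sources used here. K562/IM is 1 derived line, so a difference from K562 covers that line only, and nothing says that the 3 libraries of a group came from separate cultures, so the p-values measure the spread between these libraries, which may be technical.

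Messenger RNA was sequenced to total counts of 75093844 to 107344598 per library. Levels are given as CPM, the counts scaled to a common library size. If each count is taken as 1 read, libraries of a group differed by more than counting noise, so depth was not the limit for well expressed genes. A gene "passed" where the adjusted p (edgeR's quasi-likelihood test, Benjamini-Hochberg over all genes tested) was under 0.05, and it passed both thresholds where the log2 fold change was also beyond 1 in either direction. Fewer expressing cells and less RNA per cell cannot be told apart in such bulk libraries. Before the results, 1 doubt about the labels has to be stated. ABCB1, the efflux pump often raised in drug-resistant lines, stood between 21.9 and 25.9 CPM in K562/IM and between 1.68 and 1.86 CPM in K562, but between 0.488 and 1.06 CPM in the K562/IM+L-labelled libraries. The sample titles also number this group differently from the study's own figures. These 3 are therefore called the K562/IM+L-labelled libraries below, and every direction drawn from them rests on that label. The ABCB1 level alone does not show that the label is wrong. All 14 markers of K562 cells were above 1 CPM in every library of all 4 groups. Their summed level was 7941 to 10593 CPM in K562, 5465 to 6273 CPM in K562+L, 3763 to 3957 CPM in K562/IM and 40493 to 57407 CPM in the K562/IM+L-labelled libraries, so these libraries also stood apart in their erythroid genes. Of the markers of other cells, the 4 fibroblast genes summed to 18.8 to 23.6 CPM in K562/IM and under 1 CPM elsewhere. The 4 T cell genes summed to 21.9 to 23.5 CPM in K562/IM and 0.404 to 2.90 CPM elsewhere, with CD2 at 0 in K562+L and in the K562/IM+L-labelled libraries. Most of these sums in K562/IM came from 1 gene each, COL1A2 (15.4 to 18.1 CPM) and CD3D (21.3 to 23.0 CPM). In the K562/IM+L-labelled libraries COL1A2 stood at 0 to 0.088 CPM and CD3D at 0.128 to 0.461 CPM. The doubt about the label thus covers these genes as well as ABCB1. Only 2 of the 4 fibroblast genes and 1 of the 4 T cell genes were above 1 CPM in every K562/IM library. B cell and monocyte genes summed to at most 2.60 CPM in any library, with MS4A1 at 0 in all 12. The 4 epithelial genes summed to far more, from 475 CPM in a K562/IM+L-labelled library to 908 CPM in a K562+L library. Of these, 3 (EPCAM, KRT8 and KRT18) were above 1 CPM in every library. The part of these differences in the results was not tested.

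The mevalonate pathway turns acetyl-CoA into isoprenoid units, from which squalene, the sterols and the lipid anchors of many proteins are built. The enzymes are largely switched together by the SREBP transcription factors, which SCAP escorts to the Golgi for cleavage when sterol is low and which the INSIG proteins hold in the endoplasmic reticulum when sterol is high. INSIG1 is itself a target of SREBP, so its messenger RNA is a familiar read-out of this switch. SREBP binds its sterol regulatory element together with NF-Y, which binds the CCAAT box, and with Sp1.

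The promoter sequences ran from 250 bases before to 50 bases after the gene start in RefSeq (GRCh38.p14), with 1 start per gene. They were available for 27 of the 30 genes, all but ACAT2, FDFT1 and SQLE. The RefSeq start can differ from the start in the gene positions given here, which are from GENCODE. The letters CCAAT were found on either strand in 17 of the 27 promoters (63%) against 35.7% of the 27305 promoters in the table, and the Sp1 box GGGCGG in 24 of 27 (88.9%) against 44.6%. The 27305 promoters are not limited to expressed genes or to the 19447 genes counted, so these shares do not compare like with like. The sterol regulatory element was searched in a loose form, TCACNCCAC, and in a strict form, which has C at the open base and an A before it and so lies within a loose match. Both were in 1 of the 27 promoters, that of SREBF2, against 1.15% of all promoters for the loose and 0.0476% for the strict form. A match is a description of these letters only, and a promoter without a match says nothing about the factor. INSIG1 and MVD carry the largest changes that passed in the lycorine comparisons, and MSMO1 passed both thresholds in each. SREBF2 holds the 1 strict element. The promoters of these genes are therefore shown, that of INSIG1 at chr7:155297628-155297927 (plus strand), MSMO1 at chr4:165327419-165327718 (plus strand), MVD at chr16:88663042-88663341 (minus strand) and SREBF2 at chr22:41832855-41833154 (plus strand). Each is written 5′ to 3′ on the strand of the gene, and capitals mark CCAAT boxes on either strand and, in SREBF2, also the sterol regulatory element.
INSIG1: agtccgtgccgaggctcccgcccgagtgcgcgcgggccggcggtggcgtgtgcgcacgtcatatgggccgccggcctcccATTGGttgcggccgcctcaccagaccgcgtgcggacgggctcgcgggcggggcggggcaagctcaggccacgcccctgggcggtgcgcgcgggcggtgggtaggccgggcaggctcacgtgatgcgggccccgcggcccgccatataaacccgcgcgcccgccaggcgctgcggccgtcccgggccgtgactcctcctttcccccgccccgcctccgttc
MSMO1: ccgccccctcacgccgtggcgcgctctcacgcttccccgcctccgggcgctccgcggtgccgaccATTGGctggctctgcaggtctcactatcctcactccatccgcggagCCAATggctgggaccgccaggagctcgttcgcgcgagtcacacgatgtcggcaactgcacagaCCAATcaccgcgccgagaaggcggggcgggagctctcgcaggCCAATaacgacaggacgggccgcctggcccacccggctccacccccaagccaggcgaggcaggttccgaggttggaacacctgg
MVD: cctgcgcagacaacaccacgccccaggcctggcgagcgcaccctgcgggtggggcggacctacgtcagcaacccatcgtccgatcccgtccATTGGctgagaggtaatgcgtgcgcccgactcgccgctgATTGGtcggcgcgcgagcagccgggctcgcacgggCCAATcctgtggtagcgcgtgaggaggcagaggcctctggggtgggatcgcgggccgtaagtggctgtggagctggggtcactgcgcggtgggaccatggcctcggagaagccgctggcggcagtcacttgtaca
SREBF2: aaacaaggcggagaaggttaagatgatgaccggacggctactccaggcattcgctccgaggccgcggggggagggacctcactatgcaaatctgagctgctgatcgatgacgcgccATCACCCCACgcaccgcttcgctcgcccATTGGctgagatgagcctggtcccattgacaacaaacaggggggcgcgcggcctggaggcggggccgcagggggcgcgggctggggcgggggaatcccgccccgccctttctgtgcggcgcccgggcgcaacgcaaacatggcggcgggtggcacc
The MSMO1 promoter holds 4 CCAAT boxes, that of MVD 3, and those of INSIG1 and SREBF2 1 each.

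In untreated K562 cells nearly all of these genes were well expressed. Per kilobase of exonic length (GENCODE 29), HMGCS1 stood at 89.2 CPM per kb, FDFT1 at 83.0, FDPS at 74.9, INSIG1 at 74.7 and CYP51A1 at 71.0 CPM per kb. At the lower end were TM7SF2 at 3.74 CPM per kb, INSIG2 just under it, and ABCA1, the pump that exports cholesterol to lipoproteins, at 0.0071 CPM per kb. ABCA1 had 9, 11 and 0 counts in the K562 libraries, 37, 23 and 20 in K562+L, 26, 32 and 35 in K562/IM and 13, 3 and 29 in the K562/IM+L-labelled libraries, so it lay near the floor and its fold changes, which did not pass in any comparison, are not read further.

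**Figure D1:**
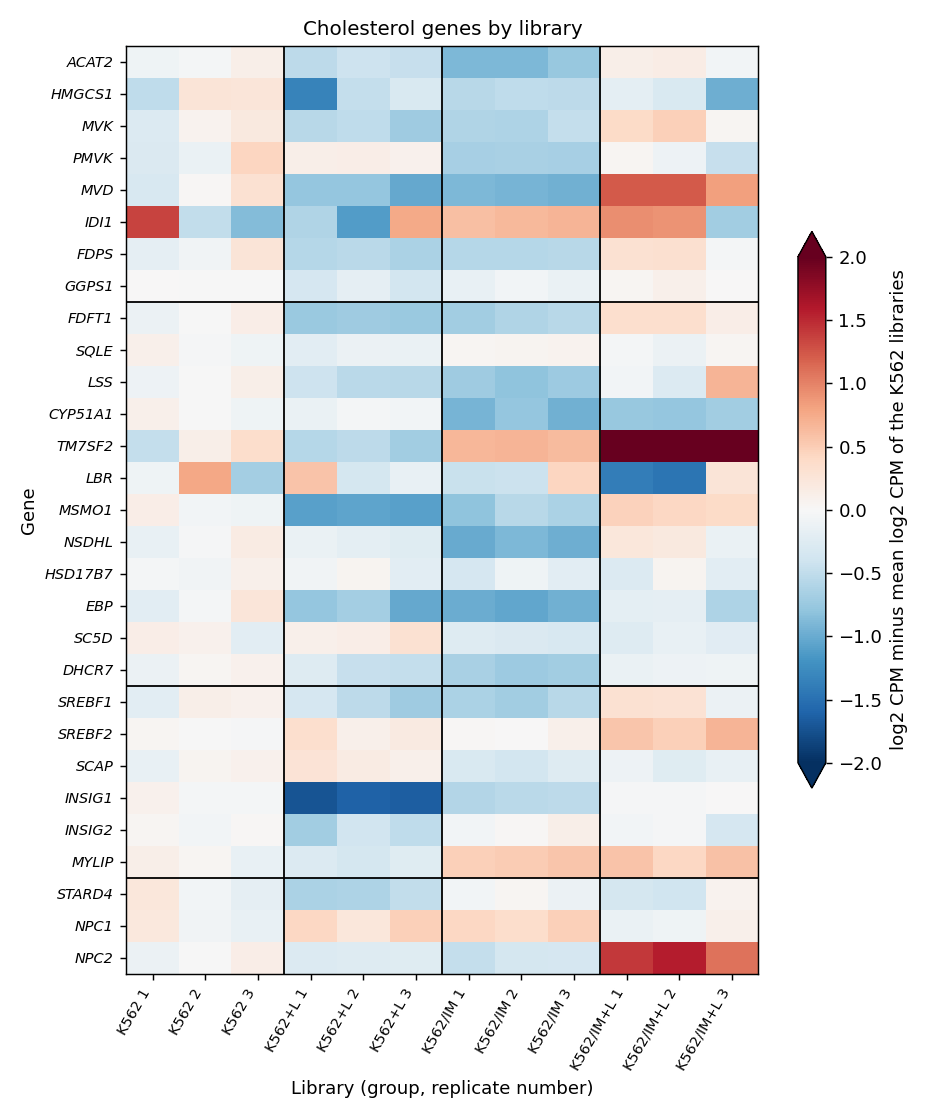
Level of 29 of the 30 cholesterol genes in each of the 12 libraries, as log2 CPM minus the mean log2 CPM of the 3 K562 libraries, with colours clipped at 2 in either direction (ABCA1 is left out because a K562 library had 0 counts). Rows are genes in the order of their role, with black lines between roles and groups, and the blue blocks of K562+L and K562/IM and the paler or red block of the K562/IM+L-labelled libraries can be seen.

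The first comparison asks what lycorine did to these genes in imatinib-sensitive K562 cells. Among the cholesterol genes, 16 of the 30 were lower in K562+L than in K562, 1 was higher and 13 did not pass, while 19.0% of all genes tested were lower and 18.2% higher. The median log2 fold change was -0.42 over the 30 genes and -0.0001 over all 12927 genes tested. INSIG1 and MSMO1 passed both thresholds downward, as did 4.01% of all genes, and none of the 30 did so upward (2.38% of all genes). The groups did not overlap in 18 genes that were lower and 4 that were higher in K562+L, against 25.9% and 25.7% of all genes.

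INSIG1 (chr7:155297776-155310235, plus strand, GENCODE 29 on GRCh38), the sterol sensor that holds SREBP back, moved most among the genes that passed. It stood at 288, 264 and 265 CPM in the 3 K562 libraries and at 82.1, 88.8 and 86.8 CPM in the 3 K562+L libraries. Every treated library was thus far under every control library, a difference of -1.67 ± 0.082 (SE), adjusted p = 4.8e-05, or 3.18-fold. MSMO1 (chr4:165327623-165343160, plus strand), an oxidase in the removal of methyl groups from sterols, stood at 52.2, 46.1 and 45.1 CPM in K562 and 22.4, 23.0 and 22.4 CPM in K562+L. The treated libraries again lay closely together and under all controls (log2 fold change -1.08 ± 0.092 (SE), adjusted p = 2.5e-04).

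By role, 5 of the 8 genes of the mevalonate and isoprenoid steps were lower and none higher (median -0.53). ACAT2, which joins acetyl-CoA units, fell from 176 ± 12.9 to 127 ± 4.76 CPM (mean ± SD, n = 3; log2 fold change -0.47 ± 0.087 (SE), adjusted p = 0.0055). MVD, the decarboxylase that makes isopentenyl diphosphate, fell by more (-0.88 ± 0.16 (SE), adjusted p = 0.0051), with 137, 174 and 212 CPM in K562 and 100.5, 99.8 and 84.0 CPM in K562+L. MVK, a kinase of mevalonate, and FDPS, the farnesyl diphosphate synthase, fell alike by 0.60 on the log2 scale (adjusted p = 0.010 and 0.0072), and GGPS1, which makes the geranylgeranyl anchor, fell by 0.29 (adjusted p = 0.028). HMGCS1, which makes HMG-CoA, had a log2 fold change of -0.68 and PMVK, which acts on phosphomevalonate, of 0.08, and neither passed.

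Of the 12 genes of the squalene and sterol steps, 6 were lower and none higher (median -0.30). FDFT1, the squalene synthase at the branch to sterols, fell from 432 ± 36.7 to 259 ± 4.11 CPM (mean ± SD, n = 3; log2 fold change -0.74 ± 0.084 (SE), adjusted p = 8.4e-04). The isomerase EBP (chrX:48521158-48528716, plus strand) stood at 108, 121 and 148 CPM in K562 and 72.5, 78.0 and 61.1 CPM in K562+L, without overlap (-0.83 ± 0.14 (SE), adjusted p = 0.0040). LSS, which closes squalene epoxide into lanosterol, fell by 0.51, and DHCR7, the last reductase, by 0.40 on the log2 scale. TM7SF2, a sterol reductase, fell by 0.63 with adjusted p = 0.036. SQLE, the squalene epoxidase, was 185 ± 12.1 CPM in K562 and 166 ± 5.79 CPM in K562+L and did not pass (log2 fold change -0.16 ± 0.084 (SE), adjusted p = 0.17). CYP51A1, NSDHL, HSD17B7, LBR and SC5D did not pass either, with log2 fold changes from -0.20 to 0.17.

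Among the 6 control genes, 4 were lower and none higher. Besides INSIG1, these were SREBF1 (-0.52 ± 0.13 (SE), adjusted p = 0.016), which encodes an SREBP factor, INSIG2 (-0.52 ± 0.12 (SE), adjusted p = 0.011) and MYLIP (-0.29 ± 0.095 (SE), adjusted p = 0.041), a ubiquitin ligase that removes lipoprotein receptors. SREBF2, which encodes the SREBP factor most tied to cholesterol, and SCAP had log2 fold changes of 0.21 and 0.17 and did not pass. Of the 4 transport genes, STARD4, a cytosolic sterol carrier, fell (-0.59 ± 0.12 (SE), adjusted p = 0.0074). NPC1, which moves cholesterol out of the lysosome, was the 1 gene that rose (0.37 ± 0.12 (SE), adjusted p = 0.041), and its partner NPC2 had a log2 fold change of -0.26 and did not pass.

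The calls near the threshold depended on single libraries. When each of the 6 libraries was left out in turn, between 11 and 18 genes were lower. TM7SF2 and MYLIP each lost their call in 5 of the 6 fits (adjusted p up to 0.105 and 0.139), GGPS1 and NPC1 in 4 (up to 0.11 and 0.141), DHCR7 in 3 (up to 0.0665) and SREBF1 in 2 (up to 0.066), and each library cost at least 1 call when left out. Without K562 replicate 1, HMGCS1 (-0.90, adjusted p = 0.0191), NPC2 (-0.33, adjusted p = 0.0289) and NSDHL (-0.28, adjusted p = 0.0427) were lower too. The other 11 genes that were lower passed in all 6 of these fits.

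The second comparison asks how the imatinib-resistant line differed from its parent. It shares the K562 libraries with the first one, so the values of both are given side by side without a test of their likeness. In K562/IM 18 of the 30 genes were lower than in K562, 3 were higher and 9 did not pass, against 27.1% of all genes lower and 30.1% higher. The median log2 fold change was -0.47 over the 30 genes and 0.04 over all 13406 genes tested. EBP alone passed both thresholds downward, as did 5.29% of all genes, and none upward (13.9%). When single libraries were left out, 0 to 4 genes passed both, and the 4 without K562 replicate 1 included MVD (-1.13), NSDHL (-1.07) and, upward, IDI1 (1.28). The groups did not overlap in 19 genes that were lower and 4 that were higher in K562/IM, against 31.1% and 35.5% of all genes.

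EBP stood at 108, 121 and 148 CPM in K562 and 62.2, 60.6 and 63.6 CPM in K562/IM (-1.01 ± 0.12 (SE), adjusted p = 2.4e-04). The resistant libraries were nearly equal and all under the controls, but the fold lay at the threshold: it was -0.89 without K562 replicate 3 and -0.996 without K562/IM replicate 2. NSDHL (chrX:152830967-152869729, plus strand), the dehydrogenase that acts beside MSMO1 in demethylation, was close to it with 74.2, 81.6 and 92.8 CPM in K562 and 41.0, 44.3 and 42.1 CPM in K562/IM (-0.96 ± 0.097 (SE), adjusted p = 1.3e-04). With lycorine in K562, NSDHL had a log2 fold change of -0.20 and did not pass. CYP51A1, the demethylase of lanosterol, likewise fell in K562/IM (-0.89 ± 0.084 (SE), adjusted p = 9.3e-05, from 254 ± 16.2 to 137 ± 9.81 CPM, mean ± SD, n = 3) and had -0.08 under lycorine in K562. INSIG1 fell as well, with 181, 188 and 189 CPM in K562/IM and a log2 fold change of -0.55 ± 0.068 (SE), adjusted p = 3.5e-04, against -1.67 under lycorine.

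In the mevalonate and isoprenoid steps 6 of 8 genes were lower and none higher. They were MVD (-0.95 ± 0.15 (SE), adjusted p = 0.0010), ACAT2 (-0.86 ± 0.083 (SE), adjusted p = 1.0e-04), PMVK (-0.69), FDPS (-0.58), MVK (-0.57) and HMGCS1 (-0.57, adjusted p = 0.032), whose groups overlap. Without K562 replicate 3 the change of PMVK was -0.46. GGPS1 had a log2 fold change of -0.11 and IDI1 of 0.29, and neither passed. In the squalene and sterol steps 8 of 12 were lower. Beside EBP, NSDHL and CYP51A1 these were LSS (-0.75), DHCR7 (-0.69), MSMO1 (-0.67 ± 0.097 (SE), adjusted p = 7.7e-04), FDFT1 (-0.62) and SC5D (-0.29), the desaturase before DHCR7. TM7SF2 was the 1 sterol enzyme that was higher in K562/IM (0.61 ± 0.19 (SE), adjusted p = 0.024), whereas it fell with lycorine in K562. SQLE (0.06), HSD17B7 (-0.21) and LBR (-0.22) did not pass.

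Of the control genes, SREBF1 (-0.64), INSIG1 and SCAP (-0.32) were lower and MYLIP was higher (0.51 ± 0.084 (SE), adjusted p = 0.0014). MYLIP was thus lower with lycorine and higher in the resistant line, each against the same K562 libraries, and its mean rose from 102 ± 9.12 to 145 ± 3.96 CPM in the latter (mean ± SD, n = 3). SREBF2 did not pass, at 204 ± 4.71 CPM in K562 and 210.3 ± 6.79 CPM in K562/IM (log2 fold change 0.05 ± 0.064 (SE), adjusted p = 0.57), and INSIG2 had 0.03. Of the carriers, NPC1 was higher (0.41 ± 0.10 (SE), adjusted p = 0.011) and NPC2 lower (-0.39 ± 0.097 (SE), adjusted p = 0.0099), although both serve the same lysosomal export step, and STARD4 had -0.06 and did not pass. When each library was left out in turn, 15 to 19 genes were lower and 2 to 4 higher. HMGCS1 lost its call in 5 of the 6 fits, all but the one without K562 replicate 1 (adjusted p up to 0.111), SC5D and TM7SF2 in 4 (up to 0.136 and 0.0686) and SCAP in 3 (up to 0.0605). The change of TM7SF2 was 0.38 without K562 replicate 1, and HSD17B7 (-0.26, adjusted p = 0.0499) then passed downward.

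**Figure D2:**
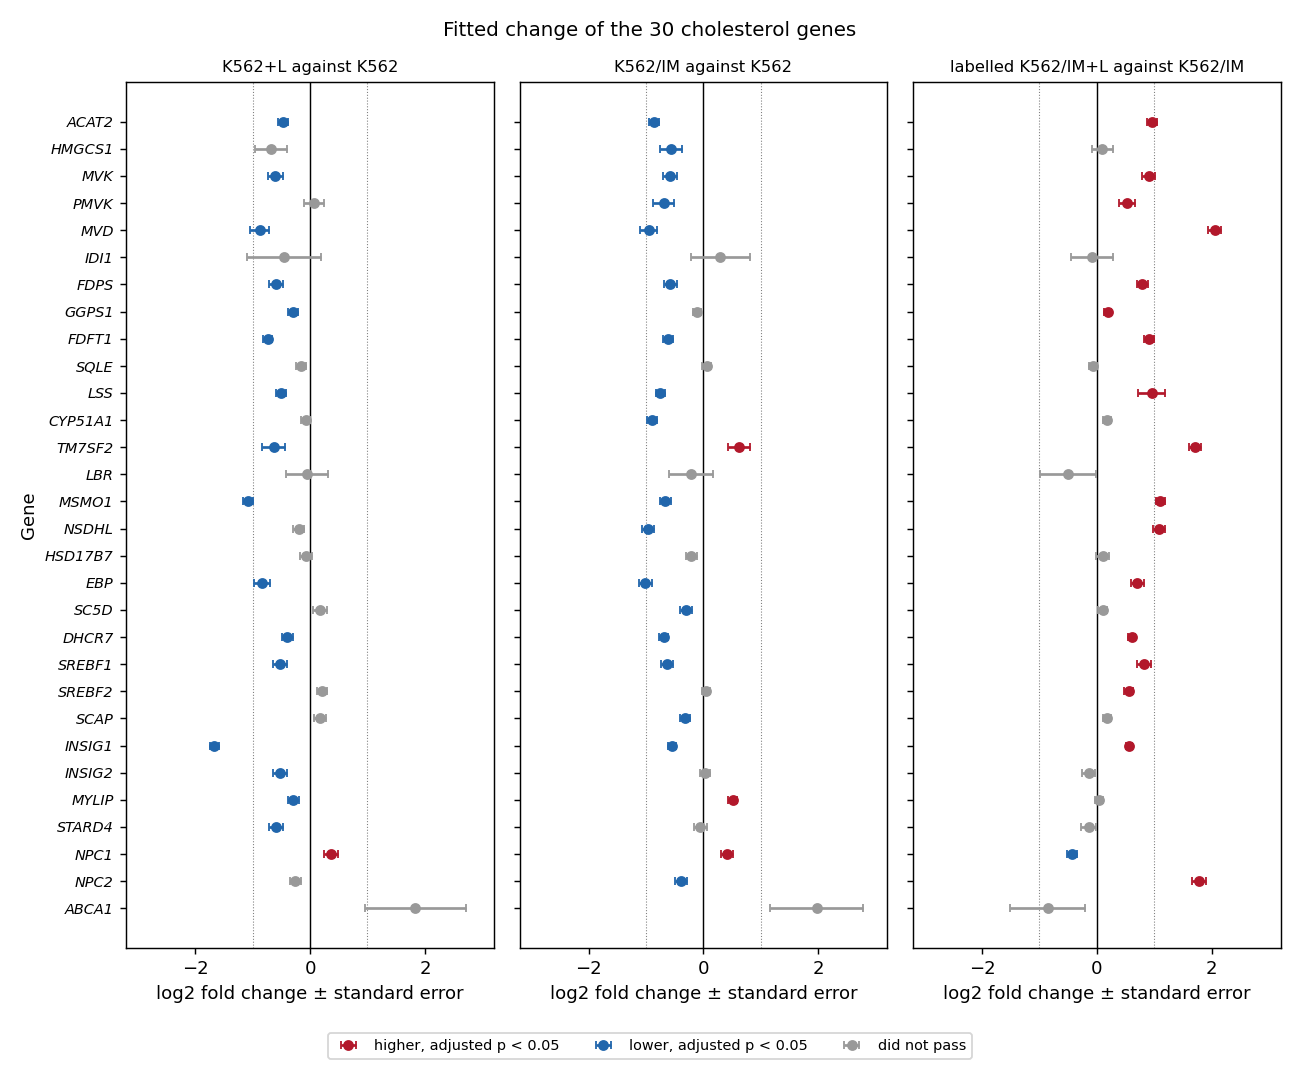
Fitted log2 fold change (points) with its standard error (bars) of each of the 30 genes in 3 comparisons, in red where higher and blue where lower at an adjusted p under 0.05 and in grey where the gene did not pass; dotted lines mark a log2 fold change of 1 in either direction. The points lie mostly left of 0 in K562+L and in K562/IM (16 and 18 genes lower) and mostly right of 0 in the K562/IM+L-labelled libraries against K562/IM (17 genes higher), and the first 2 panels share the K562 libraries and the last 2 the K562/IM libraries.

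The third comparison sets the K562/IM+L-labelled libraries against K562/IM, as the lycorine effect in the resistant line. Among the cholesterol genes, 17 of the 30 were higher, 1 was lower and 12 did not pass. Among all genes tested 33.2% were higher and 33.6% lower, so most of the transcriptome differed between these groups. The median log2 fold change was 0.54 over the 30 genes and -0.0069 over all 13727. MVD, NPC2, TM7SF2, MSMO1 and NSDHL passed both thresholds upward, as did 14.7% of all genes, and none downward (13.8%). When single libraries were left out, 5 to 8 genes passed both, and the 8 without replicate 3 of the K562/IM+L-labelled libraries included LBR downward (-1.30). The groups did not overlap in 19 genes that were higher and 3 that were lower, against 34.9% and 38.5% of all genes. This comparison shares the K562/IM libraries with the second one, and its direction rests on the label.

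MVD (chr16:88651935-88663161, minus strand) changed most, from 92.0, 90.2 and 88.3 CPM in K562/IM to 400.1, 402 and 301 CPM in the K562/IM+L-labelled libraries (2.05 ± 0.12 (SE), adjusted p = 6.3e-06, 4.15-fold). All 3 of the latter were above all others in the series, since K562 reached 211.7 CPM. NPC2 (chr14:74476192-74494177, minus strand) stood at 13.7, 14.9 and 15.1 CPM in K562/IM and 50.5, 56.4 and 40.2 CPM in the K562/IM+L-labelled libraries (1.78 ± 0.13 (SE), adjusted p = 1.9e-05, 3.43-fold). In K562 it was 17.5, 18.9 and 20.7 CPM and in K562+L 15.8, 15.9 and 16.0 CPM, so these 3 libraries were again the highest.

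TM7SF2 (chr11:65111845-65116384, plus strand) stood at 19.6, 19.8 and 19.1 CPM in K562/IM and 64.7, 69.2 and 53.4 CPM in the K562/IM+L-labelled libraries (1.70 ± 0.10 (SE), adjusted p = 7.9e-06, 3.26-fold). It was the lowest in K562+L, at 8.36, 8.58 and 7.69 CPM, and reached at most 15.8 CPM in K562. LBR, which catalyses the same reduction, had a log2 fold change of -0.50 and did not pass. MSMO1 was at 27.3, 32.4 and 30.7 CPM in K562/IM and 65.6, 63.4 and 62.0 CPM in the K562/IM+L-labelled libraries (1.11 ± 0.082 (SE), adjusted p = 2.1e-05), and NSDHL at 41.0, 44.3 and 42.1 CPM and 96.2, 94.6 and 75.3 CPM (1.09 ± 0.10 (SE), adjusted p = 6.8e-05). MSMO1 and NSDHL were thus higher in every such library than in any K562/IM library. HSD17B7, the ketoreductase that acts with them in the same demethylation, stood at 18.9, 22.2 and 20.5 CPM and 19.6, 24.7 and 20.6 CPM and did not pass (0.10 ± 0.11 (SE), adjusted p = 0.46).

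**Figure D3:**
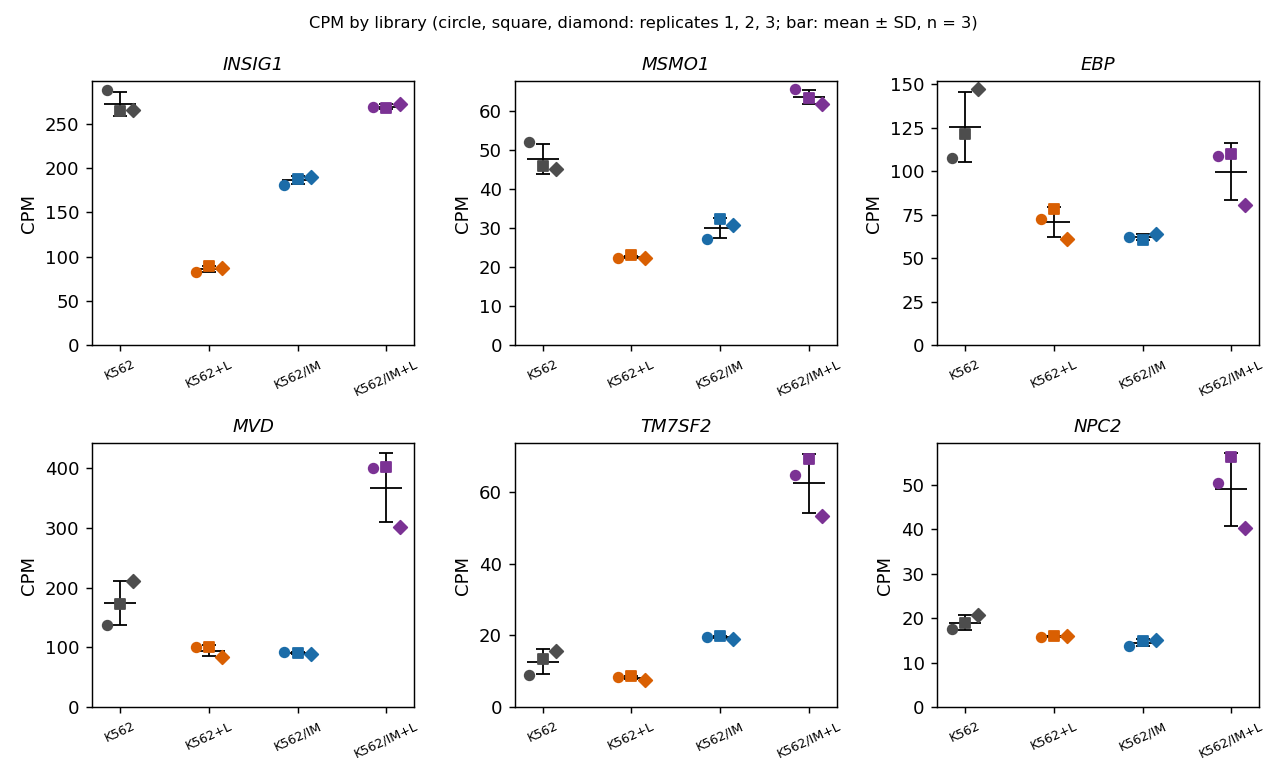
Level in CPM of INSIG1, MSMO1, EBP, MVD, TM7SF2 and NPC2 in the 12 libraries, 3 points for each of the 4 groups with the mean and SD. INSIG1 is lowest in K562+L (82.1 to 88.8 CPM), EBP is low in both K562+L and K562/IM, and MVD, TM7SF2 and NPC2 are highest in the K562/IM+L-labelled libraries, where the third library lies under the other two.

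In the mevalonate and isoprenoid steps 6 of 8 genes were higher: besides MVD these were ACAT2 (0.96 ± 0.082 (SE), adjusted p = 4.2e-05), MVK (0.90), FDPS (0.80), PMVK (0.53) and GGPS1 (0.19, adjusted p = 0.029). HMGCS1 (0.10) and IDI1 (-0.08) did not pass. In the squalene and sterol steps 7 of 12 were higher, with LSS (0.95 ± 0.23 (SE), adjusted p = 0.0078), FDFT1 (0.91 ± 0.082 (SE), adjusted p = 5.4e-05), EBP (0.71) and DHCR7 (0.61) beside TM7SF2, MSMO1 and NSDHL. FDFT1 was at 265, 285 and 295 CPM in K562/IM and 545, 545 and 472 CPM in the K562/IM+L-labelled libraries. The change of LSS was 0.62 without replicate 3 of the K562/IM+L-labelled libraries. SQLE (-0.07), CYP51A1 (0.18), HSD17B7 (0.10) and SC5D (0.10) did not pass.

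Of the control genes, SREBF1 (0.82 ± 0.12 (SE), adjusted p = 5.6e-04), SREBF2 (0.56 ± 0.078 (SE), adjusted p = 5.2e-04) and INSIG1 (0.56 ± 0.060 (SE), adjusted p = 1.3e-04) were higher. INSIG1 stood at 268, 268 and 272 CPM, against 181, 188 and 189 CPM in K562/IM. SCAP (0.18), INSIG2 (-0.14) and MYLIP (0.04) did not pass. Of the carriers NPC1 was the 1 gene that fell (-0.42 ± 0.087 (SE), adjusted p = 0.0034), while its partner NPC2 rose, and STARD4 had -0.14. When each of the 6 libraries was left out in turn, 16 to 20 genes were higher and 1 to 3 lower. GGPS1 lost its call in 5 of these fits, with adjusted p up to 0.133. Without replicate 3 of the K562/IM+L-labelled libraries, HMGCS1 (0.31, adjusted p = 8.3e-04), IDI1 (0.29, adjusted p = 8.4e-04) and SCAP (0.17, adjusted p = 0.0389) were higher too, and LBR (-1.30, adjusted p = 0.00397) and STARD4 (-0.30, adjusted p = 0.00352) lower. CYP51A1 (0.23, adjusted p = 0.0479) passed without K562/IM replicate 2 and SCAP (0.22, adjusted p = 0.0407) without replicate 2 of the K562/IM+L-labelled libraries.

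Set against untreated K562, the K562/IM+L-labelled libraries had few changed cholesterol genes. Of the 30, 6 were higher, 1 was lower and 23 did not pass, against 28.2% of all genes higher and 27.8% lower, and the median log2 fold change was 0.05 over the 30 genes (-0.02 to 0.03 without single libraries) and 0.02 over all 13307 genes tested. TM7SF2 (2.28 ± 0.22 (SE), adjusted p = 1.5e-04), NPC2 (1.35 ± 0.15 (SE), adjusted p = 2.8e-04) and MVD (1.06 ± 0.19 (SE), adjusted p = 0.0026) passed both thresholds upward, as did 14.9% of all genes, and none downward (8.91%). The groups did not overlap in 8 genes that were higher and 1 that was lower, against 33.4% and 30.2% of all genes. SREBF2 (0.56), MYLIP (0.50) and MSMO1 (0.40) were higher by less. CYP51A1 was the 1 gene that was lower (-0.76 ± 0.084 (SE), adjusted p = 2.7e-04), at 152 ± 4.89 CPM against 254 ± 16.2 CPM in K562 (mean ± SD, n = 3). In K562/IM it was 137 ± 9.81 CPM. INSIG1 was 272 ± 13.4 CPM in K562 and 269.5 ± 2.51 CPM in these libraries, a log2 fold change of -0.04 ± 0.078 (SE), adjusted p = 0.72. Leaving out 1 library gave 6 to 7 higher genes and 1 to 3 lower, with HMGCS1 (-0.72, adjusted p = 0.0389) and SCAP (-0.26, adjusted p = 0.049) lower without K562 replicate 1, SC5D (-0.34, adjusted p = 0.0293) lower without K562 replicate 3, and LBR (-1.56, adjusted p = 0.0183) and STARD4 (-0.39, adjusted p = 0.0492) lower and FDFT1 (0.33, adjusted p = 0.0265) higher without replicate 3 of the K562/IM+L-labelled libraries.

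Whether the lycorine effect differed between the 2 lines was tested over all 12 libraries, as the effect in K562/IM minus the effect in K562. It was positive and passed in 17 of the 30 genes and negative in 1, against 29.9% and 31.7% of the 13995 genes tested (61.7% in either direction). The median was 0.61 over the 30 genes and -0.02 over all genes. Single libraries moved the first between 0.47 (without K562+L replicate 1) and 0.95 (without K562+L replicate 3). In 13 of the 30 the difference was also above 1, as in 17.5% of all genes, and no difference that passed was below -1 (16.3%). The 13 were MVD (2.91 ± 0.22 (SE), adjusted p = 5.5e-07), TM7SF2, INSIG1 (2.21 ± 0.086 (SE), adjusted p = 3.4e-09), MSMO1, NPC2, FDFT1, EBP, MVK, LSS, ACAT2, FDPS, SREBF1 and NSDHL. NPC1, the 1 gene with a negative difference (-0.82 ± 0.15 (SE), adjusted p = 4.8e-04), rose with lycorine in K562 and fell in the other comparison. SQLE (0.06 ± 0.095 (SE), adjusted p = 0.58), SCAP (-0.02 ± 0.11 (SE), adjusted p = 0.91) and SC5D (-0.09 ± 0.14 (SE), adjusted p = 0.59) had the smallest differences in size. When each of the 12 libraries was left out in turn, 16 to 19 differences were positive and 1 negative. MYLIP lost its call in 5 of these fits (adjusted p up to 0.0706) and SREBF2 in 1 (0.0533).

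The genes with a CCAAT box in the promoter can be set beside those without as a description. With lycorine in K562, 11 of the 17 genes with the box were lower and 3 of the 10 without it, beside 19.0% of all genes (median log2 fold change -0.59 and -0.06). In K562/IM against K562 the numbers were 12 of 17 and 4 of 10 lower, beside 27.1% of all genes (-0.57 and -0.17). In the K562/IM+L-labelled libraries against K562/IM, 12 of 17 and 3 of 10 were higher, beside 33.2% of all genes (0.71 and 0.05). The set without the box holds ABCA1, which lay near the floor. Of the genes uneven between libraries of a group, HMGCS1 and LSS carry the box, and IDI1 and LBR lack it in the window searched. For IDI1 this window was chr10:1056655-1056954 (minus strand). It lies wholly before the gene position given for IDI1, chr10:1039152-1049170. The promoter at the start of that position was not searched, so the place of IDI1 among the 10 holds for the RefSeq start only. The 2 sets also differ in role, and the part of the box in these numbers was not tested. INSIG1, MSMO1 and MVD, whose sequences are printed above, belong to the first set, and so do SC5D and HSD17B7, which did not pass with lycorine in either line.

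IDI1 (chr10:1039152-1049170, minus strand), the isomerase that interconverts the 2 isoprenoid units, has to be read by library. It stood at 202, 56.2 and 43.0 CPM in K562 and 51.7, 36.2 and 133 CPM in K562+L. In K562/IM the 3 libraries were nearly equal, at 119.6, 124 and 126 CPM, and the K562/IM+L-labelled libraries were at 149.6, 147 and 48.4 CPM. The highest library was thus 4.69 times the lowest in K562, 3.67 times in K562+L, 1.05 times in K562/IM and 3.09 times in the K562/IM+L-labelled libraries, and the groups overlap. The pooled SD of log2 CPM within groups was 0.898 for IDI1, more than for 91.8% of the 13995 genes, against a median of 0.176 over all genes and 0.134 over the 30 cholesterol genes. At the other end, INSIG1 had an SD of 0.0492, more than 2.12% of all genes.

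No comparison of IDI1 passed with all libraries, with log2 fold changes of -0.45 ± 0.65 (SE), adjusted p = 0.61 for K562+L against K562, 0.29 ± 0.52 (SE), adjusted p = 0.65 for K562/IM against K562 and -0.08 ± 0.37 (SE), adjusted p = 0.86 for the K562/IM+L-labelled libraries against K562/IM. Single libraries set these values. Without K562 replicate 1, IDI1 was higher in K562/IM than in K562 (1.28, adjusted p = 4.5e-05) and had a positive value of 0.56 with lycorine in K562 (adjusted p = 0.368). Over the 12 libraries, the 8 genes whose deviations from their group means followed those of IDI1 most closely were OR2B2 (Pearson r = 0.939), LAMTOR3 (0.928), ZNF518A (0.926), INTS2 (0.909), CAVIN4 (0.902), EDEM3 (0.901), TIMM8A (0.9) and CFAP97D1 (0.898). None of them is an enzyme of the mevalonate pathway, and these are the closest of 13994 genes over 12 libraries that all genes share, so the values are a description. Among the cholesterol genes the deviations of IDI1 had r from -0.658 (SCAP) to 0.665 (SC5D) over the same libraries, with 0.483 for MSMO1, 0.439 for NPC1, 0.063 for HMGCS1, -0.341 for LBR and -0.637 for LSS.

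3 more genes were uneven between libraries of a group and were picked out after their values were seen. LBR stood at 226, 412 and 149.8 CPM in the K562 libraries, 357, 189 and 218 CPM in K562+L, 177, 178 and 323 CPM in K562/IM and 92.2, 87.2 and 289 CPM in the K562/IM+L-labelled libraries. LBR, a protein of the inner nuclear membrane as well as a sterol reductase, was highest in K562 replicate 2, K562+L replicate 1 and replicate 3 of the other two groups, and it did not pass in any comparison of the reported test. HMGCS1 stood at 287, 488 and 483 CPM in the K562 libraries, 162, 294 and 331 CPM in K562+L, 278, 288 and 284 CPM in K562/IM and 356, 330.3 and 207 CPM in the K562/IM+L-labelled libraries. The low libraries of HMGCS1 were K562 replicate 1, K562+L replicate 1 and replicate 3 of the K562/IM+L-labelled libraries. LSS stood at 168, 179.9 and 195 CPM in the K562 libraries, 135, 124 and 123 CPM in K562+L, 111, 104 and 109 CPM in K562/IM and 175, 149.6 and 290.1 CPM in the K562/IM+L-labelled libraries. In LSS, replicate 3 of the last group lay above every other library of the series. The pooled SD of log2 CPM within groups was 0.702 for LBR, 0.412 for HMGCS1 and 0.26 for LSS, more than for 87.9%, 79.5% and 68.3% of all genes.

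**Figure D4:**
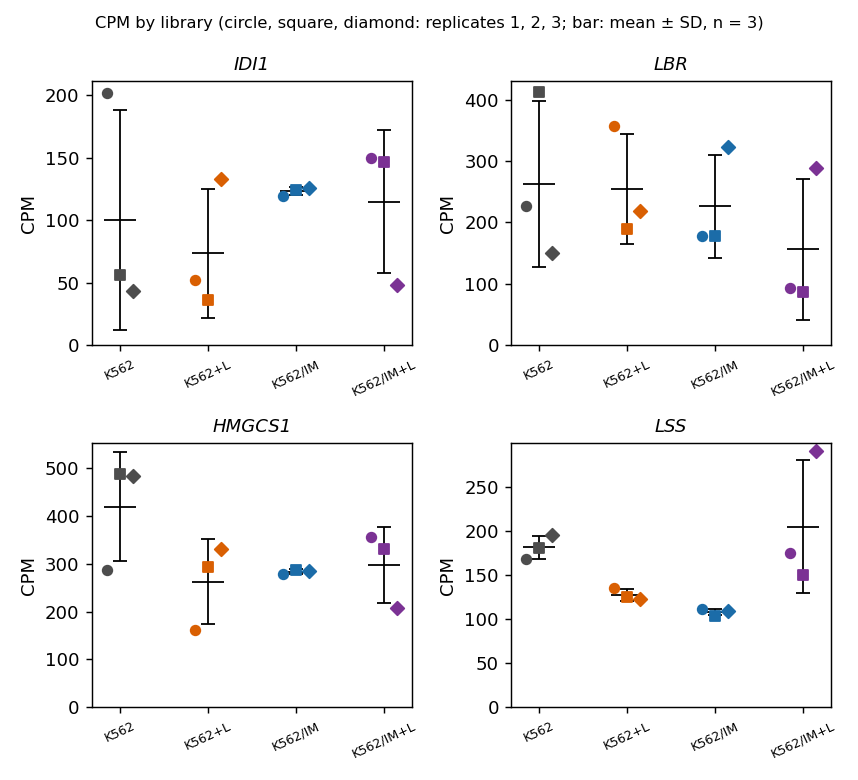
Level in CPM of IDI1, LBR, HMGCS1 and LSS in each of the 12 libraries, 3 points for each of the 4 groups. The IDI1 points spread from 43.0 to 201.9 CPM in K562 and lie between 119.6 and 125.9 CPM in K562/IM, and the LBR points spread in all 4 groups.

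Several other genes moved together from library to library within groups. Over the 12 libraries the deviations of MVD from its group means had r = 0.951 with those of EBP, 0.941 with FDPS, 0.939 with TM7SF2, 0.935 with MVK, 0.923 with NSDHL and 0.894 with PMVK. The deviations ran opposite to those of STARD4 (-0.927), NPC1 (-0.88) and SQLE (-0.855). In K562, replicate 3 had the highest MVD, EBP, NSDHL and NPC2 and replicate 1 the lowest. In the K562/IM+L-labelled libraries, replicate 3 had the lowest values of all 4. All genes of a library share its preparation and depth, so these values describe the libraries and carry no p.

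Some of the 30 genes overlap a neighbour, and whether the counting used strand is not given in the sources used here, so their reads cannot be fully told apart. TM7SF2 overlaps VPS51 on the same strand, which stood at 99.8 CPM in K562, 101 CPM in K562+L, 87.9 CPM in K562/IM and 150.2 CPM in the K562/IM+L-labelled libraries (group means). MVK overlaps MMAB on the opposite strand, which stood at 38.7, 25.2, 21.6 and 79.4 CPM in the same order, low and high in the same groups as MVK. ACAT2 overlaps TCP1 and SOD2, GGPS1 overlaps TBCE and ARID4B, SREBF1 overlaps RAI1, NPC1 overlaps RMC1 and NPC2 overlaps ISCA2.

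A further 49 genes around the pathway were followed as counts. They comprise genes of SREBP cleavage and sterol-regulated degradation, genes of sterol transport, storage and oxysterols, and genes of the isoprenoid branches. With lycorine in K562, 42 were tested, of which 9 were higher and 4 lower, and none passed both thresholds (6.39% of all genes did). Over all genes 18.2% were higher and 19.0% lower. All 8 genes of cleavage and degradation were tested, and 3 were higher and none lower. In K562/IM against K562, 41 were tested, of which 7 were higher and 15 lower, beside 30.1% and 27.1% of all genes. TMEM97, a sterol-regulated membrane protein that binds NPC1, fell (-1.07 ± 0.067 (SE)), as did the oxysterol-binding OSBPL1A (-2.54 ± 0.34 (SE)) and OSBPL10 (0 to 4 counts in K562/IM against 12 to 35 in K562), and OSBPL5 was higher (1.19 ± 0.12 (SE)).

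In the K562/IM+L-labelled libraries against K562/IM, 42 were tested, of which 14 were higher and 16 lower, beside 33.2% and 33.6% of all genes. In the oxysterol-binding family OSBPL10 (23 to 34 counts against 0 to 4 in K562/IM), OSBPL1A (2.72 ± 0.34 (SE)), OSBP2 (2.19 ± 0.071 (SE)) and OSBPL2 (1.00 ± 0.069 (SE)) were higher and OSBPL8 was lower (-1.44 ± 0.20 (SE)). SOAT1, which esterifies cholesterol for storage, fell (-1.46 ± 0.094 (SE)), and so did NCEH1, which frees it from esters (-1.26 ± 0.19 (SE)), and the lipoprotein receptor LRP8 (-1.38 ± 0.11 (SE)). RABGGTA, a subunit of the transferase that attaches geranylgeranyl anchors to Rab proteins, rose (1.57 ± 0.075 (SE)). Against K562, 7 of 42 were higher and 17 lower in the same libraries, beside 28.2% and 27.8% of all genes. Past both thresholds 4 were higher and 8 lower, beside 14.9% and 8.91% of all genes. The difference between the lycorine effects was positive in 14 and negative in 19 of 43, beside 29.9% and 31.7% of all genes.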

How the data were processed

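Poly(A)-enriched RNA from 4 groups of 3 samples was sequenced by a company, which also processed the reads. The deposited table holds the authors' counts per gene symbol, not normalized, for 19447 symbols in 12 libraries. The submitters' processing notes name FastQC, STAR, StringTie, DESeq2 and build hg38, and annotation, strand setting and versions are not given in the sources used here. Of 23289 counts between 1 and 25, 67.9% equalled a multiple of 4 or exceeded one by 1, and the reason is not given, so dividing all counts by 4 was tried as an alternative. 0 columns of samples were left unmapped.

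Each comparison of 2 groups used its 6 libraries in R 4.3.3 with edgeR 4.0.16 (filterByExpr with a minimum count of 10, TMM factors, quasi-likelihood test, Benjamini-Hochberg adjustment over all genes tested), and the difference of the lycorine effects used all 12 libraries. A gene passed at an adjusted p under 0.05, and passed both thresholds where the log2 fold change was also over 1 in size. CPM used TMM factors over the 12 libraries. A fold change is higher or lower relative to the group named last. DESeq2 1.42.0, RLE and upper-quartile factors, other filters, counts divided by 4, a replicate block, 1 fit over all libraries and leaving out each library were tried as alternatives. The functions were tested on simulated data. The labels give no batch or date. Libraries of a group differed beyond counting noise (median chi-square per gene 3.95 to 23.0, against 0.455 for noise alone if each count is 1 read). None was therefore treated as the same library counted again. The check cannot tell separate cultures from separate preparations of 1 culture, and the pattern in the low counts leaves the noise level uncertain.

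The 30 genes, the 49 further pathway genes and the marker lists were chosen with earlier results of these data known. Values by library are given for IDI1, for every gene of the 30 past both thresholds in K562+L or K562/IM against K562, and for the 6 with the largest changes past both thresholds in the K562/IM+L-labelled libraries against K562/IM (5 passed). The further pathway genes are named only past both thresholds. Gene positions are from GENCODE 29 (GRCh38) and promoter sequences from RefSeq (GRCh38.p14).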

Additional observations from a re-analysis of the deposited data

Results flagged for a closer look

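The 18 genes below were picked out because the lycorine effect differed between the lines in the test of the difference itself (edgeR's quasi-likelihood test of the interaction over 12 libraries, adjusted p under 0.05, as in 61.7% of the 13995 genes tested). Each value is the log2 fold change in K562/IM minus that in K562, and each rests on the label of the K562/IM+L-labelled libraries. In these libraries ABCB1, COL1A2 and CD3D lay far under K562/IM, and the erythroid genes far above it. The low ABCB1 level does not by itself show that the label is wrong, and the cause of these differences was not tested. In the mevalonate and isoprenoid steps the difference was 2.91 for MVD, 1.48 for MVK, 1.41 for ACAT2, 1.37 for FDPS and 0.46 for GGPS1. In the squalene and sterol steps it was 2.32 for TM7SF2, 2.16 for MSMO1, 1.63 for FDFT1, 1.52 for EBP, 1.44 for LSS, 1.27 for NSDHL and 0.98 for DHCR7. Among the control genes it was 2.21 for INSIG1, 1.32 for SREBF1, 0.32 for SREBF2 and 0.31 for MYLIP, and among the carriers 2.02 for NPC2 and -0.82 for NPC1. The difference of SREBF2 and that of MYLIP were the smallest of the 18, and both lost their call in fits without 1 library.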

How the results depend on the processing

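Of 150 recomputed counts of genes that passed, 137 stayed within 1.5 times the reported count, and no gene of the 30 that passed changed sign under any alternative. The count of genes higher with lycorine in K562 (1, NPC1) was 0 with upper-quartile factors and with the replicate block, 2 with all 12 libraries in 1 fit, and 0 to 1 when single libraries were left out. The count lower in the K562/IM+L-labelled libraries against K562/IM (1) was 2 with the replicate block, which added LBR (-0.68, adjusted p = 0.0156), and 1 to 3 without single libraries. Against K562 it was 1 to 3 without single libraries, and the count of negative differences between the lycorine effects (1) was 2 with DESeq2, which added ABCA1, a gene near the floor. INSIG1 in the K562/IM+L-labelled libraries against K562, reported as -0.04, was 0.12 with upper-quartile factors (adjusted p = 0.233), which also moved the median of all genes in that comparison from 0.02 to 0.17, and -0.0641 to 0.0039 without single libraries (the latter without K562 replicate 1). The sign of IDI1 turned in every comparison when single libraries were left out, from -1.19 to 0.56 with lycorine in K562, from -0.0718 to 1.28 in K562/IM against K562, from -0.31 to 0.29 in the K562/IM+L-labelled libraries against K562/IM, from -0.19 to 1.20 in the latter against K562, and from -0.65 to 1.09 for the difference. EBP in K562/IM lay under the fold threshold with upper-quartile factors (-0.97) as well. Replicate numbers did not pair the libraries (correlations of deviations from -0.227 to 0.081), and with the replicate block 5 calls with lycorine in K562 were lost (DHCR7, GGPS1, MYLIP, NPC1 and TM7SF2) and HMGCS1 was gained. The causes were not tested. With 3 libraries a group, small changes such as those of GGPS1 and SC5D are at the limit of what could be called.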
